A study of Mus musculus with 10 samples.

Results

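Wild type mouse embryonic stem (ES) cells were compared with the day 8 cultures derived from them, with 3 of the 10 libraries of the series: 1 wild type library at day 0 and 2 wild type libraries at day 8. The members were chosen by genotype and day as the labels give them. The day 0 cells are wild type ES cells of strain background 129x1 x 129S1, kept in medium with fetal calf serum and leukemia inhibitory factor (LIF). The day 8 cultures are of the same genotype and background, were taken through embryoid bodies formed in hanging drops, and are labelled as cardiac cultures derived from ES cells. The remaining 7 libraries, wild type at day 14 and Rybp null at days 0, 8 and 14, entered the fit for the spread between replicates, and the null libraries of days 0 and 8 served for a single comparison at the end. The labels number the day 8 replicates but do not say whether they came from separate cultures, so each p-value measures the spread between these samples, which may be technical. The cells are a mixture harvested whole from a dish, and the level of a gene in such bulk RNA cannot tell fewer cells of a type from less of its RNA per cell.

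Mouse ES cells are held in a self-renewing state by LIF signalling and by a circuit of transcription factors around Pou5f1 (Oct4), Sox2 and Nanog. When LIF is withdrawn and the cells are left to aggregate, the embryoid body passes through steps that resemble gastrulation: the pluripotency circuit closes, a transient primitive streak program opens, and mesoderm then gives heart, vessel, blood and connective tissue lineages. Heart muscle fate is set by regulators such as Gata4, Tbx5, Hand2, Mef2c, Isl1 and Nkx2-5, which together switch on the contractile proteins of the sarcomere and the channels and pumps that move calcium.

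The 3 libraries held 3419681 counts at day 0 and 3028153 and 3492732 counts at day 8, within the range of 3028153 to 6890792 over all 10, which is shallow. Levels are given as CPM, counts scaled to a common library size, and are not divided by gene length, so they are compared between samples and not between genes. Across genes the day 8 replicates had a Spearman correlation of 0.972 with each other and of 0.711 and 0.727 with the day 0 library. The replicates differed by more than counting noise, with a chi-square per degree of freedom of 3.25. Marker sets followed the labels. The 7 ES cell markers summed to 5719 CPM at day 0 and to 28.4 and 41.4 CPM at day 8, while the 7 cardiomyocyte markers went from 348 CPM to 2490 and 2051 CPM. Within the cardiomyocyte sums, Ttn alone gave 341 CPM at day 0 and 1259 and 918 CPM at day 8. Nkx2-5, a defining cardiomyocyte marker, had 0 counts at day 0 and 1 and 0 counts in the day 8 libraries. Markers of other cells were present as well, and each set is given beside the gene group it moves with.

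Of 15819 genes tested, 3358 rose (21.2%) and 3047 fell (19.3%) by day 8, so 40.5% were called at an adjusted p under 0.05. By fitted value 1106 of them rose and 632 fell by at least 16-fold. For genes with 0 counts in a group that value is not a measured size. At day 0, 661 of the genes that rose had 0 counts, and at day 8, 249 of those that fell had 0 counts. The median log2 fold change over all genes tested was 0.13. A gene high in 1 library only could pass the filter on low counts, so the tested members of a list lean toward genes that differ, and untested members are counted apart. Where a group had 0 counts, a fold is a lower bound against 3 counts over the group's libraries. Where it had 1 to 3 counts, the ratio is given with its 95% exact counting interval. Both cover counting error only.

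**Figure D1:**
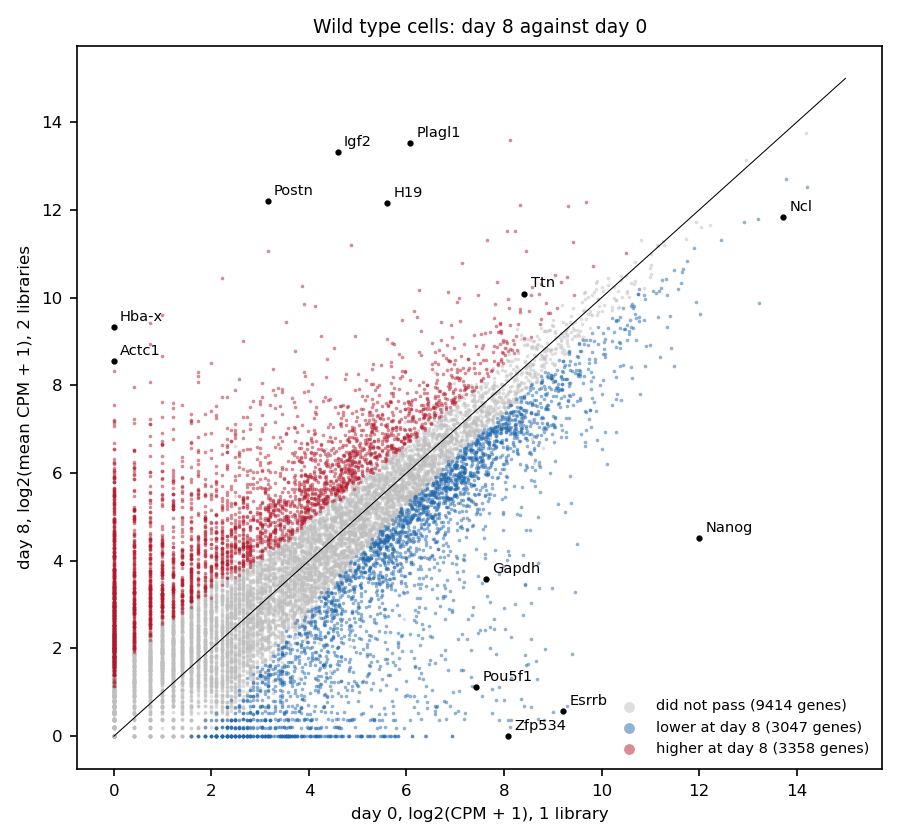
Each point is a gene tested, with its level at day 0 on the x axis and the mean of the 2 day 8 libraries on the y axis, both as log2(CPM + 1); the line marks equal levels. The 3358 genes that rose lie above the line and the 3047 that fell lie below it, with Nanog among the genes farthest below.

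The pluripotency program fell almost as a block. Of 38 listed genes of the naive and general pluripotency network 37 were tested; 35 fell, 0 rose and 2, Tbx3 and Lin28a, did not pass, with a median log2 fold change of −5.37 beside 0.13 over all genes. The proximal promoters of Nanog (ENSMUSG00000012396) and Zfp42 (ENSMUSG00000051176), a zinc finger gene also called Rex1, are shown because both genes fell and both windows hold a match to the octamer-like letters that Pou5f1 recognises. They run 250 bases before to 50 after the start site, from RefSeq on GRCm38.p6, at chr6:122707239-122707538 on the plus strand and chr8:43306960-43307259 on the minus strand. Capitals mark TTTGCAT and, for Nanog, ACAATG, a letter string of the type SOX factors recognise.
Nanog: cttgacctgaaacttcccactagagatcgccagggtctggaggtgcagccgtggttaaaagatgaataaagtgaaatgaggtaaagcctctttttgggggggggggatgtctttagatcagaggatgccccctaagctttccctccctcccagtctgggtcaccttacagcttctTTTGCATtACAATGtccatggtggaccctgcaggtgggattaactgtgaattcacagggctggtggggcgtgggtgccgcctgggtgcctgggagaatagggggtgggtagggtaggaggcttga
Zfp42: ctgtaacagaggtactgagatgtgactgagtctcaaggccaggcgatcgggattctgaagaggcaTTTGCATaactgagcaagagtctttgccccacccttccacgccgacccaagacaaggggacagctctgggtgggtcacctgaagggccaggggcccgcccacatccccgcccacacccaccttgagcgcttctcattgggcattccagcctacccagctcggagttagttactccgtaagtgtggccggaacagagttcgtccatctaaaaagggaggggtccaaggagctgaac
In Nanog the 2 matches begin at positions -75 and -67 and in Zfp42 the match begins at -185, counted from the start site. Searched on both strands, TTTGCAT was in 4.63% and ACAATG in 12.6% of all 32851 promoters of that length. Among the 26 pluripotency genes with a promoter in the table, 4 held TTTGCAT (15.4%), against 448 of 10415 tested genes (4.3%). By direction, TTTGCAT was in 4.05% of genes lower at day 8 and in 4.64% of genes higher. These matches are descriptions of letters and not of bound sites.

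Nanog, a homeodomain factor of the circuit, was at 4088 CPM at day 0 and at 16.3 and 27.3 CPM at day 8, a 186-fold lower mean (log2 fold change −7.54, SE 0.62, adjusted p = 4.42e-05). Pou5f1, the POU factor on which the circuit depends, was at 172 CPM at day 0 and at 0.958 and 1.41 CPM at day 8 (−7.13, SE 0.46, adjusted p = 4.49e-07). Sox2, its HMG-box partner, went from 182 CPM to 4.79 and 3.95 CPM (−5.38, SE 0.31, adjusted p = 2.85e-07). In all 3 genes the day 0 library stood far above both day 8 libraries, which lay close together. Esrrb, an orphan nuclear receptor of the naive state, had 1802 counts at day 0 and 3 and 0 at day 8, a ratio of 1323 (452 to 6424, adjusted p = 1.20e-07). Zfp42 was at 216 CPM at day 0 and at 0.319 and 0.564 CPM at day 8, a ratio of 482 (164 to 2342, adjusted p = 4.25e-07). Dppa5a, an RNA-binding protein of pluripotent cells, went from 372 CPM to 0.319 and 0.845 CPM (−9.20, SE 0.43, adjusted p = 9.22e-08). The falls ran through every layer of the network. Dppa2 had a day 0 over day 8 ratio of 328 (111 to 1594), the methyltransferase cofactor Dnmt3l a ratio of 791 (218 to 6544), and Fgf4, the growth factor that ES cells make themselves, fell at least 59.5-fold. The Klf factors Klf2, Klf4 and Klf5 fell, with log2 fold changes of −4.43, −3.95 and −5.37. The Nodal pathway genes Lefty1, Lefty2 and Nodal were lower as well, with Lefty2 at 28.7 CPM and then 1.28 and 1.13 CPM (−4.54, SE 0.65); Lefty1 lost its call without either day 8 replicate. Otx2, a factor of the later, primed state, also fell (−2.99, SE 0.49). Lin28a, an RNA-binding protein that blocks let-7 maturation, was at 447 CPM at day 0 and at 72.5 and 115 CPM at day 8, which did not pass (−2.25, SE 1.00, adjusted p = 0.129). Tbx3 was at 58.1 CPM and then at 11.8 and 34.4 CPM (adjusted p = 0.172).

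**Figure D2:**
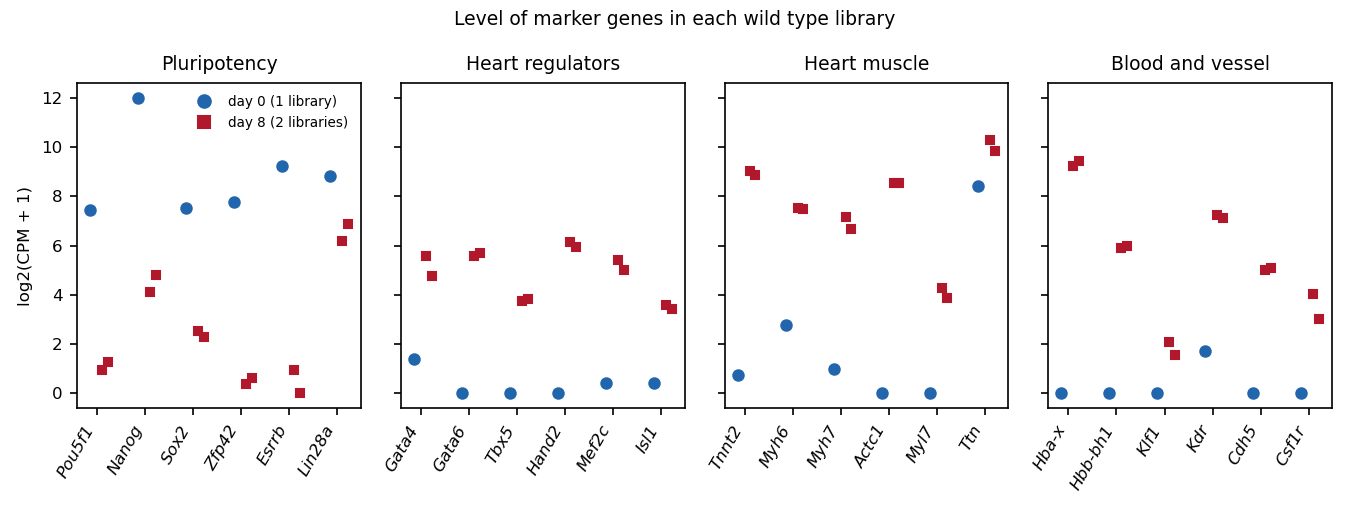
Levels of 24 marker genes as log2(CPM + 1) on the y axis, with the day 0 library as a circle and the 2 day 8 libraries as squares. The day 8 libraries lie below day 0 for all 6 pluripotency genes and above it for the 6 heart regulators, 6 heart muscle genes and 6 blood and vessel genes.

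By day 8 the primitive streak stage was not seen in the counts. Of 20 listed genes of the streak and early mesoderm, 15 had too few counts to test, among them T (Brachyury), the T-box factor of the streak, Mixl1, Mesp1 and Gsc, and Eomes did not pass (2.31 CPM at day 0, 0.958 and 2.25 CPM at day 8). The 4 that rose were the mesoderm receptors Pdgfra and Kdr, Hand1 and the secreted inhibitor Cer1. Pdgfra, a receptor of cardiac and connective tissue mesoderm, went from 1.32 CPM to 195 and 192 CPM (7.16, SE 0.40, adjusted p = 2.53e-07). Kdr, the VEGF receptor of vascular and cardiac progenitors, went from 2.31 CPM to 152 and 137 CPM (5.95, SE 0.66, adjusted p = 2.93e-05). Cer1 had 0 counts at day 0 and 9 and 10 at day 8, and it lost its call without either day 8 replicate.

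Heart regulators rose widely. Of 30 listed cardiac transcription factors and progenitor genes 23 were tested; 19 rose, 0 fell, and the median log2 fold change was 6.04. Fitted values were then replaced by lower bounds at 0 counts in 1 group and by count ratios at 1 to 3 counts. Genes with 3 or fewer counts in each group were left out. The median so made was 4.66 over 22 genes, and later medians with bounds are made likewise. Gata4, a zinc finger factor of heart and endoderm, was at 1.65 CPM at day 0 and at 46.6 and 25.9 CPM at day 8 (4.43, SE 0.60, adjusted p = 1.13e-04). Tbx20, a T-box factor of the early heart, went from 1.98 CPM to 145 and 151 CPM (6.20, SE 0.38, adjusted p = 3.30e-07). For both genes each day 8 replicate lay well above day 0. Hand1 and Hand2, basic helix-loop-helix factors of the ventricles and outflow tract, had 0 counts at day 0; Hand1 was at least 64.6-fold and Hand2 at least 65.2-fold higher at day 8. Gata6 and Tbx5 also started from 0 counts, and rose at least 49.5-fold (Gata6) and 13-fold (Tbx5). Mef2c, a MADS-box factor that drives muscle genes, had 1 count at day 0 and was at 41.8 and 31 CPM at day 8, a ratio of 109 (19.4 to 4338). Isl1, a LIM homeodomain factor of second heart field progenitors, had 1 count at day 0 and 34 and 35 counts at day 8, 10.9 and 9.86 CPM (ratio 31.3, 5.44 to 1255, adjusted p = 0.00479). Myocd, the coactivator that works with serum response factor on muscle genes, rose from 0 counts to 29.4 and 29.6 CPM (at least 29.8-fold), while Srf itself was at 7.59 CPM and then 14.4 and 11.3 CPM (adjusted p = 0.234). Meis1, Meis2, Mef2a, Mef2d, Smyd1, Zfpm2, Gata5, Irx3 and Popdc2 were also among those that rose. Not every cardiac gene took part. Nkx2-5 had at most 1 count in each library, and Nppa and Nppb, the natriuretic peptides of chamber muscle, had 3 or fewer counts in each library, too few to test.

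The sarcomere, the contractile unit of muscle, went up from near silence in most of its parts. Of 36 listed genes 35 were in the table and 30 had enough counts to test; 24 rose and 0 fell, with a median of 4.64, or 3.29 with bounds. The promoters of cardiac actin Actc1 (ENSMUSG00000068614), at chr2:114052826-114053125 on the minus strand, and of the atrial myosin light chain Myl7 (ENSMUSG00000020469), at chr11:5898733-5899032 on the minus strand, are shown as those of sarcomere genes with 0 counts at day 0. Both promoters were also picked because their windows hold a CArG box, so its presence in them is no result. Capitals mark the CArG box, the motif of serum response factor, and in Actc1 also TATAAA. The windows and their source are as for Nanog.
Actc1: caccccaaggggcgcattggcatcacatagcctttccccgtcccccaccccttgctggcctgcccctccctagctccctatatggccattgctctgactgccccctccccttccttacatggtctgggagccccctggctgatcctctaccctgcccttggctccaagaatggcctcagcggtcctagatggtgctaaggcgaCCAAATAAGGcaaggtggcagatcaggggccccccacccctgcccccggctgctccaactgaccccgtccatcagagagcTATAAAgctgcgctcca
Myl7: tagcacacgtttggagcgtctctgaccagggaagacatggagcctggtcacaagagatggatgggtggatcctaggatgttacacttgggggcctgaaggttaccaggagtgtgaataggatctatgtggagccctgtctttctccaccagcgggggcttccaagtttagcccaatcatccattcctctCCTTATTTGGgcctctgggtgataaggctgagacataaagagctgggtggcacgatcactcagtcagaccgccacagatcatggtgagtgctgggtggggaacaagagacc
The CArG box begins at -47 in Actc1 and at -61 in Myl7, and the TATAAA of Actc1 begins 34 bases into the transcript as RefSeq annotates its start. A CArG box, on either strand, was in 1.63% and TATAAA in 13.6% of all promoters of that length. Of the 30 sarcomere genes with a promoter on record 8 held a CArG box (26.7%), against 169 of 10415 tested genes (1.62%). Among 11 smooth muscle genes 1 did (9.09%). By direction, a CArG box was in 2.15% of genes higher at day 8 and in 1.2% of genes lower. These shares describe letters in a fixed window and say nothing of binding.

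Actc1 went from 0 CPM to 370 and 375 CPM, at least 376-fold higher (adjusted p = 7.16e-04). Tnnt2, cardiac troponin T of the thin filament, had 2 counts at day 0 and was at 520 and 464 CPM at day 8, a ratio of 744 (206 to 6143, adjusted p = 4.48e-04). Myh6, the alpha cardiac myosin heavy chain, was at 5.94 CPM at day 0 and at 182 and 179 CPM at day 8 (4.92, SE 0.86, adjusted p = 0.00195). Both thick and thin filaments were thus represented. Myh7, the beta heavy chain, had 3 counts at day 0 and was at 140 and 101 CPM at day 8 (ratio 120, 41.1 to 585). The light chains Myl2, Myl3 and Myl7 had 0 counts at day 0 and were at least 17.1-fold, 10.3-fold and 16-fold higher, and Myl4 rose by 4.36 (SE 0.57). Nebl, a thin filament protein of heart, and Myom1, which crosslinks the M band, had ratios of 155 (52.9 to 753) and 65.1 (22.1 to 317). Cryab, a small heat shock protein that protects desmin filaments, went from 1.32 CPM to 51.4 and 48.2 CPM (5.20, SE 0.47). Tropomyosin Tpm1, which many cell types make, went from 821 CPM to 4761 and 4453 CPM (2.49, SE 0.22, adjusted p = 4.55e-06).

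Titin (Ttn, ENSMUSG00000051747, chromosome 2), the giant spring of the sarcomere, was already present at day 0. It was at 341 CPM in the ES cell library, where Actc1, Myl2, Myl3 and Myl7 were at 0, and at 1259 and 918 CPM at day 8 (1.67, SE 0.31, adjusted p = 9.49e-04). Members that did not pass included cardiac troponin I, Tnni3, at 4.62 CPM and then 3.83 and 1.69 CPM (adjusted p = 0.48), and skeletal actin, Acta1, at 2.31 CPM and then 3.51 and 1.97 CPM (adjusted p = 0.876). The slow troponin I of the embryonic heart, Tnni1, rose from 0 counts to 18.8 and 23.1 CPM (at least 21.3-fold). Tcap, Myoz2 and Csrp3, proteins of the Z disc, had 2 or fewer counts in each library.

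**Figure D3:**
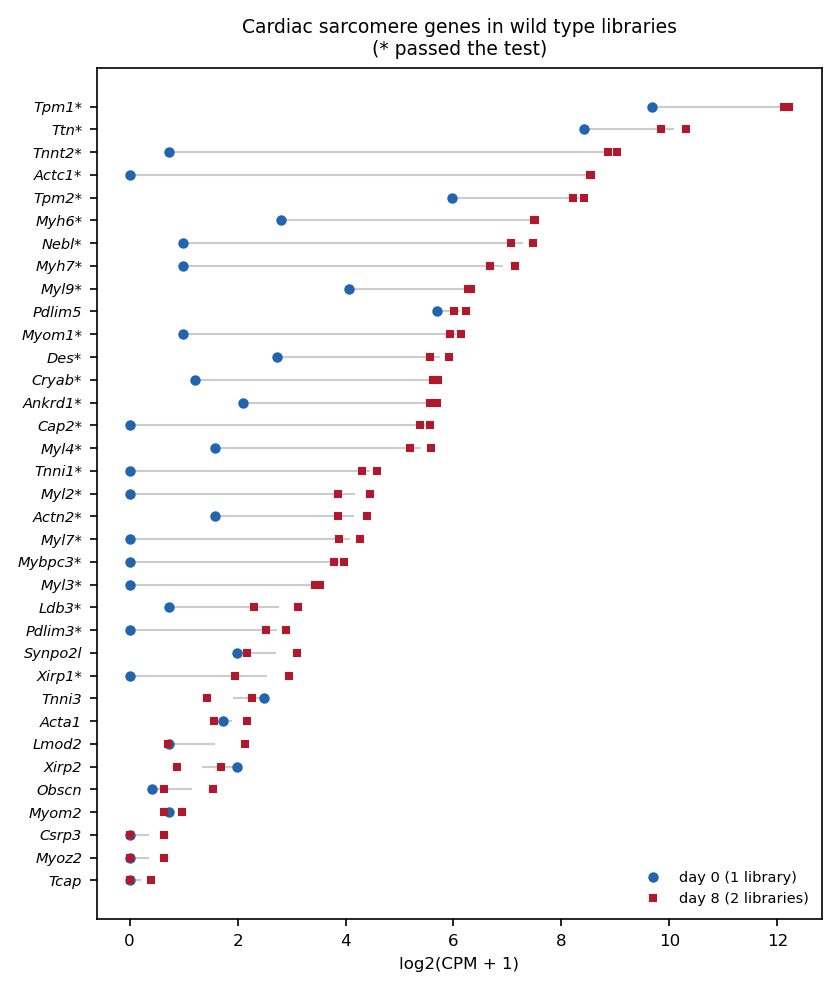
The 35 sarcomere genes in the table, ordered by their day 8 mean, with the day 0 library as a circle, the 2 day 8 libraries as squares and a grey line from day 0 to the day 8 mean, all as log2(CPM + 1); an asterisk marks the 24 that passed. Ttn at 341 CPM and Tpm1 at 821 CPM were already well above 0 at day 0, and 12 genes have 0 counts at day 0.

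Genes of calcium handling and of the action potential moved unevenly. Of 30 tested 16 rose, 1 fell and 13 did not pass, with a median of 3.20, or 1.77 with bounds. The share called was 56.7%, against 40.5% over all genes tested. Slc8a1, the sodium-calcium exchanger of the heart cell membrane, went from 0 CPM to 161 and 133 CPM (at least 148-fold, adjusted p = 2.67e-06). Ryr2, the release channel of the sarcoplasmic reticulum, was already at 12.2 CPM at day 0 and reached 96.1 and 80.6 CPM (2.85, SE 0.39, adjusted p = 1.18e-04). Jph2, which holds that membrane to the cell surface, rose from 0 counts to 39.3 and 38.3 CPM (at least 39.2-fold). The L-type calcium channel followed in its pore subunit Cacna1c (ratio 23.6, 6.37 to 197) and its beta subunit Cacnb2 (ratio 54, 9.51 to 2151), as did the inward rectifiers Kcnj2 (4.82, SE 0.69) and Kcnj5 (at least 10.6-fold). The single fall was in the calcium pump Atp2a2, from 646 CPM to 342 and 366 CPM (−0.87, SE 0.19, adjusted p = 0.00273), a change below 2-fold. Other genes of this group had few counts. Pln, the inhibitor of that pump, had 0 counts at day 0 and 5 and 6 at day 8 (adjusted p = 0.0547). The pacemaker channel Hcn4 had 0 counts and then 3 and 4. The gap junction protein Gja1 was at 104 CPM and then at 67.4 and 114 CPM, and did not pass (adjusted p = 0.641).

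Smooth muscle and vessel genes rose beside the heart genes. In the smooth muscle list 12 of 15 rose and 0 fell, with a median of 2.77. Acta2, an actin that early heart muscle also makes, went from 16.5 CPM to 942 and 861 CPM (5.77, SE 0.47, adjusted p = 2.73e-06), and the actin-binding proteins Tagln (3.50, SE 0.48) and Cald1 (2.77, SE 0.23) rose. Myh11, the myosin of mature smooth muscle, was at 1.98 CPM and then at 3.19 and 2.54 CPM, and did not pass (adjusted p = 0.615). The 4 defining smooth muscle markers summed to 27.4 CPM at day 0 and to 1019 and 927 CPM at day 8; Acta2 and others are shared with heart muscle, and their part in the sarcomere result was not tested. Cnn1, calponin, rose by 2.06 (SE 0.58), a call lost without day 8 replicate 1. Of 22 endothelial genes tested 15 rose and 0 fell, with a median of 3.83, or 3.09 with bounds. The angiopoietin receptor Tek went from 15.2 CPM to 204 and 193 CPM (3.71, SE 0.31, adjusted p = 2.96e-06), and the junction cadherin Cdh5 from 0 CPM to 31.6 and 33.5 CPM (at least 33-fold). The ETS factors Erg and Fli1 rose with a ratio of 62.4 (17.1 to 518) and by at least 28.7-fold. Pecam1, an endothelial adhesion protein that ES cells also carry, was at 55.8 CPM and then at 30.7 and 34.7 CPM (−0.77, SE 0.32, adjusted p = 0.0694), and Eng had too few counts to test. The 4 defining endothelial markers summed to 73.2 CPM at day 0 and to 418 and 399 CPM at day 8.

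Blood genes appeared beside them. Of 18 erythroid genes tested 15 rose and 0 fell, with a median of 6.32, or 5.08 with bounds. Hba-x, the embryonic zeta-like globin, went from 0 CPM to 595 and 685 CPM (at least 650-fold, adjusted p = 0.0116, or 0.0592 without a filter on low counts), and Hbb-bh1, an embryonic beta-like globin, from 0 CPM to 58.1 and 61.7 CPM (at least 60.7-fold). Hbb-y rose at least 145-fold, and Hba-a1 and Hba-a2, near-identical copies whose reads may be shared, at least 188-fold and at least 141-fold. Alas2, the heme synthesis enzyme of red cells, went from 1.32 CPM to 47 and 42.8 CPM (5.05, SE 0.52), and the membrane exchanger Slc4a1 from 0 CPM to 45.4 CPM in both libraries (at least 45.8-fold). Tal1 and Lmo2, regulators of the first blood cells, rose with a ratio of 50.2 (13.7 to 417) and by at least 45.1-fold. Gata1, the master regulator of red cells, was at 2.97 CPM and then at 12.5 and 10.7 CPM, which did not pass (1.95, SE 0.90, adjusted p = 0.102). In the macrophage list of 20 genes 9 rose and 1, the lysosomal protein Cd68, fell, with 5 higher without day 8 replicate 1. The 4 defining macrophage markers summed to 48.8 CPM at day 0 and to 66.1 and 42 CPM at day 8, and the 4 erythroid markers to 2.97 CPM and then 669 and 760 CPM. That replicate was the higher of the pair for Csf1r (15.3 and 7.05 CPM, from 0), for Cx3cr1 (23 and 8.17 CPM, from 0) and for Tyrobp (34.8 and 25.1 CPM, from 0), which rose at least 11-fold, 15.3-fold and 30-fold. Across the macrophage list 50% were called, against 40.5% over all genes tested. Its median was 5.20, or 1.26 with bounds.

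Connective tissue and matrix genes rose in nearly every class measured. Of 24 collagen genes tested 19 rose and 0 fell (median 5.83, or 3.96 with bounds), as did 20 of 30 matrix glycoprotein genes, with 1 lower (3.57, or 3.20 with bounds), 14 of 20 basement membrane genes, with 0 lower (1.89), and 19 of 22 mesenchymal genes, with 0 lower (3.49). Col1a1 and Col1a2, the chains of type I collagen, went from 7.92 CPM to 2350 and 1925 CPM (8.07, SE 0.83, adjusted p = 1.52e-04) and from 3.63 CPM to 1555 and 1239 CPM (8.58, SE 0.55, adjusted p = 5.96e-07). Postn, periostin of valve and cardiac fibroblast matrix, went from 7.92 CPM to 5050 and 4324 CPM (9.20, SE 0.75, adjusted p = 1.95e-05). Col3a1, the fibrillar partner of type I collagen, had 3 counts at day 0 and was at 853 and 709 CPM at day 8 (ratio 785, 268 to 3806). The small proteoglycans Dcn and Lum, found in fibroblasts, had 0 counts at day 0; Dcn was at least 34.3-fold and Lum at least 73.4-fold higher. Igfbp5, a secreted binder of insulin-like growth factors, had a ratio of 1042 (288 to 8603). Fn1, fibronectin, went from 321 CPM to 4601 and 4221 CPM (3.78, SE 0.36), and Serpinh1, the collagen chaperone, from 1.98 CPM to 116 and 91.3 CPM (5.69, SE 0.58). Biglycan, Bgn, was the matrix gene that fell, from 17.5 CPM to 5.43 and 7.33 CPM (−1.44, SE 0.40, adjusted p = 0.013), a call lost without day 8 replicate 1. The 5 fibroblast or feeder cell markers summed to 21.4 CPM at day 0 and to 8994 and 7520 CPM at day 8, with Dcn at 0 at day 0 and Thy1 at 1.98 CPM at day 0 and 0 and 0.282 CPM at day 8. Whether those transcripts came from fibroblasts, from muscle precursors or from other cells was not tested.

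The mesenchymal cadherins Cdh2 and Cdh11 rose. N-cadherin, Cdh2, went from 8.25 CPM to 171 and 205 CPM (4.51, SE 0.34, adjusted p = 1.32e-06), and Cdh11 from 4.95 CPM to 297 and 269 CPM (5.83, SE 0.34). E-cadherin, Cdh1, was at 348 CPM and then at 47.3 and 89.1 CPM, which did not pass (−2.35, SE 0.99, adjusted p = 0.114). The mesenchymal repressors Zeb1 and Zeb2 rose by 2.02 (SE 0.27) and 4.60 (SE 0.42). Among 23 epithelial genes tested 7 rose and 5 fell, so 52.2% were called against 40.5% over all genes tested. Only 4 rose without day 8 replicate 2, and 3 and 1 fell without day 8 replicates 1 and 2. Desmoplakin, Dsp, which heart muscle shares with epithelia, went from 75.9 CPM to 1192 and 1114 CPM (3.93, SE 0.39). In the list of epicardial and fibroblast genes 12 of 16 tested rose and 0 fell, with the mesothelial genes Upk3b, from 1 count to 33.9 and 36.9 CPM, and Bnc1, from 0 counts to 40.9 and 27.6 CPM. Wt1, the classical epicardial factor, was at 37.9 CPM and then at 126 and 101 CPM, which did not pass (1.58, SE 0.99, adjusted p = 0.255), and Tcf21 had 0 counts and then 4 and 4. The 4 defining epicardial markers summed to 40.9 CPM at day 0 and to 162 and 142 CPM at day 8.

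Genes of other germ layers moved in both directions. Of 25 visceral endoderm and liver genes tested 11 rose and 0 fell, with a median of 4.84, or 1.98 with bounds; the share called, 44%, is near the 40.5% of all genes tested. The retinol carrier Rbp4 went from 1.32 CPM to 90.1 and 126 CPM (6.32, SE 1.34), the transport protein Ttr from 0 counts to 99 and 196 counts (at least 44.6-fold), and alpha-fetoprotein Afp from 0 CPM to 11.8 and 7.33 CPM (at least 9.53-fold), whereas Amn, a visceral endoderm receptor subunit, had 0 counts throughout. The 4 defining markers summed to 0 CPM at day 0 and to 54.9 and 77.2 CPM at day 8, and the calls of Rbp4 and Ttr were lost without a filter on low counts. Dab2, an endocytic adaptor that mesoderm also uses, went from 8.58 CPM to 363 and 296 CPM (5.26, SE 0.34). Of 29 neural genes with a row of counts 17 were tested and 12 had too few counts, and Sox1 had no row. Among the 17, 3 rose and 8 fell, with a median of −1.82. Sox2, already counted in the pluripotency list, was among those that fell. The neural regulator Pax6 fell from 60.7 CPM to 11.5 and 11.8 CPM (−2.38, SE 0.49) and neuronal tubulin Tubb3 from 32.3 CPM to 7.03 and 10.1 CPM (−1.90, SE 0.41). The 3 that rose, Sox11, Nes and Ncam1, are also made by mesenchyme and muscle precursors, and Ncam1 lost its call without a filter on low counts. The defining neural markers summed to 93 CPM at day 0 and to at most 22 CPM in the day 8 libraries. Neural crest genes had 7 higher and 1 lower of 15 tested, so 53.3% were called against 40.5% over all genes tested. Without day 8 replicate 2 only 3 rose, and without replicate 1 none of them fell. They included Snai2, a repressor of epithelial genes (ratio 95.3, 16.9 to 3782), and Ednrb, an endothelin receptor (at least 43-fold), while Sox10, a defining crest factor, had 0 counts throughout. The skeletal muscle determination genes Myod1, Myf5, Myf6 and Myog had 0 counts in all 3 libraries; of 10 tested genes of that list 4 rose and 3 fell, and 1 fell without day 8 replicate 2. Of 14 trophoblast genes tested 6 rose and 1, Tfap2c, fell; without day 8 replicate 1, without a filter on low counts or with the wild type libraries alone none fell. The rises included the keratins Krt8 (3.65, SE 0.63) and Krt18 (3.35, SE 0.58), which simple epithelia share. Across the trophoblast list 50% of tested genes were called, against 40.5% over all genes tested.

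**Figure D4:**
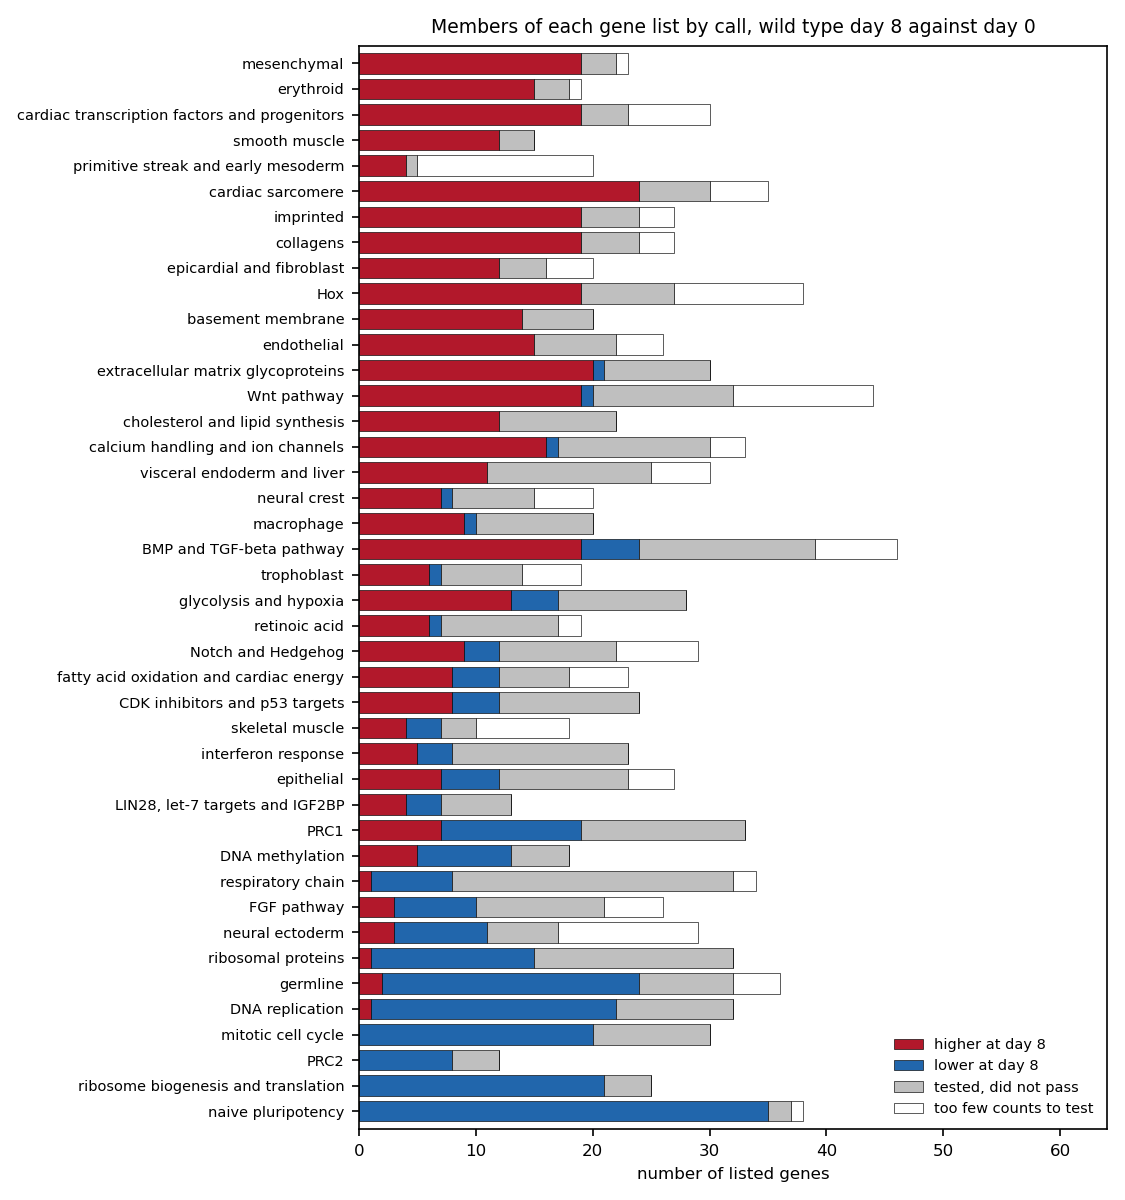
Each bar is a gene list and its length the number of listed genes in the table, split into genes that rose, fell, did not pass, or had too few counts to test at day 8 against day 0. The 35 pluripotency genes that fell stand at the bottom, and the mesenchymal list, with 19 of 22 tested genes higher, stands at the top.

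Germline genes, many of which ES cells transcribe at a low level, fell with the pluripotency network. Of 32 tested 22 fell and 2 rose, with a median of −4.00, or −3.53 with bounds. Rnf17, which carries tudor domains and is known from spermatogenesis, went from 90.4 CPM to 1.6 and 0.564 CPM (−6.38, SE 0.45, adjusted p = 7.80e-07). Tdrd12 and Mael, which act in silencing transposons with small RNAs, went from 68 CPM and 20.5 CPM to 0 counts in both day 8 libraries; Tdrd12 was at least 151-fold and Mael at least 45.5-fold lower. Ddx4, the germ cell helicase also called Vasa, fell at least 78.6-fold. The meiotic proteins Sycp3 (75.2 CPM, then 1.6 and 1.41 CPM) and Tex14 (38.6 CPM, then 0.958 and 1.69 CPM) fell, with log2 fold changes of −5.62 and −4.81. The 2 that rose, Tdrd7 and Zbtb16, are not restricted to germ cells.

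Imprinted genes, which are transcribed from the copy of only 1 parent and many of which promote fetal growth, rose together. Of 24 tested 19 rose and 0 fell, with a median of 3.11. Their summed level went from 2011 CPM at day 0 to 49879 and 47704 CPM at day 8. Plagl1 (ENSMUSG00000019817, chromosome 10), a zinc finger factor, went from 66.3 CPM to 12543 and 11149 CPM (7.48, SE 0.44, adjusted p = 3.29e-07). Igf2, the fetal insulin-like growth factor, went from 23.1 CPM to 10022 and 10400 CPM (8.79, SE 0.48, adjusted p = 2.59e-07), and H19 (ENSMUSG00000000031), the noncoding RNA beside it, from 47.5 CPM to 4665 and 4465 CPM (6.59, SE 0.27, adjusted p = 7.53e-08). In each the day 8 replicates were close and far above day 0. Peg3, a paternally expressed zinc finger gene, went from 279 CPM to 12598 and 12148 CPM (5.47, SE 0.24), and its neighbours Usp29 and Zim1 rose by 5.78 (SE 0.47) and with a ratio of 196 (66.9 to 952). At the Dlk1 and Meg3 domain, Dlk1 had 3 counts at day 0 and was at 453 and 356 CPM at day 8 (ratio 406, 139 to 1969), and Meg3 went from 347 CPM to 2219 and 2042 CPM (2.62, SE 0.32, adjusted p = 5.21e-05). The growth restrainers Igf2r (3.60, SE 0.22), Cdkn1c (1.97, SE 0.32) and Grb10 (2.10, SE 0.23) rose too. Magel2, Nespas, Impact and Mcts2 were tested and did not pass. H19 carries the hairpin of mir-675, and its mature strands are shown since H19 rose; the seed, bases 2 to 8, is in capitals. The sequences are from RefSeq on GRCm38.p6, chromosome 7, minus strand, and the strands do not share a seed.
mmu-miR-675-5p: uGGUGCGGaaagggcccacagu
mmu-miR-675-3p: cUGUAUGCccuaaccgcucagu
The gene Mir675 had 0 counts at day 0 and 12 in each day 8 library, but these libraries cannot tell a precursor from reads of its host H19, and mature miRNAs were not measured.

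Hox genes, which set position along the body axis, were nearly silent at day 0 and rose from there. Their summed level was 12.5 CPM at day 0 and 167 and 196 CPM at day 8. Of 38 Hox genes with a row of counts 27 were tested; 19 rose and 0 fell, with a median of 6.29, or 2.60 with bounds. The rises came from all 4 clusters. Hoxd8 went from 0 CPM to 17.9 and 16.1 CPM (at least 17.1-fold). Posterior members rose as well. Hoxa9 went from 0 CPM to 8.62 and 8.74 CPM (at least 8.77-fold). Hoxd9 went from 0 CPM to 9.9 and 10.1 CPM (at least 10.1-fold), and Hoxc9 from 1 count to 8.62 and 14.9 CPM (ratio 36.3, 6.33 to 1452). Hoxa13, the most posterior gene of its cluster, rose from 0 CPM to 6.71 and 21.7 CPM, with the replicates well apart. The anterior gene Hoxb1 had too few counts to test.

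Signalling genes moved in both directions. In the Wnt pathway 19 of 32 tested rose and 1, the receptor Fzd5, fell, with a median of 2.22. The ligand Wnt5a, which signals without beta-catenin, went from 1.65 CPM to 63.9 and 89.9 CPM (5.52, SE 0.47, adjusted p = 3.22e-06), and Wnt2 from 0 CPM to 5.75 and 9.3 CPM (at least 7.72-fold). The Wnt5a receptor Ror2 rose at least 14.4-fold, and Rspo3, a secreted amplifier, with a ratio of 107 (19 to 4248). The inhibitors Sfrp1, Frzb, Dkk1, Dkk2 and Dkk3 rose beside them, and Axin2, a common readout of beta-catenin signalling, had 45 counts and then 60 and 96 (adjusted p = 0.331). In the BMP and TGF-beta pathway 19 of 39 rose and 5 fell (3 without either day 8 replicate). Bmp5 and Bmp2 had 0 counts at day 0, and Bmp5 was at least 56.3-fold and Bmp2 at least 9.98-fold higher, Tgfb2 went from 5.28 CPM to 144 and 164 CPM (4.86, SE 0.37), and the coreceptor Tgfbr3 from 1.65 CPM to 175 and 199 CPM (6.80, SE 0.40). The BMP targets Id1, Id2 and Id3 did not pass. The FGF pathway had 3 of 21 higher and 7 lower (median −1.23), though 4 were lower without day 8 replicate 1. Its feedback genes Spry4, from 195 CPM to 15.7 and 15.8 CPM (−3.63, SE 0.43), and Etv5, from 102 CPM to 14.4 and 17.5 CPM (−2.68, SE 0.34), fell with Fgf4, while Fgf10, a ligand of the second heart field, rose from 0 CPM to 34.8 and 17.8 CPM (at least 26-fold). Across the FGF list 47.6% of tested genes were called, near the 40.5% of all genes tested. Of 22 Notch and Hedgehog genes 9 rose and 3 fell (1 without day 8 replicate 1): the Hedgehog targets Ptch1 (475 CPM, then 124 and 145 CPM) and Gli1 (27.1 CPM, then 4.47 and 3.38 CPM) fell, while Gli3 (2.10, SE 0.24) and the coreceptors Cdon, Boc and Gas1 rose. The call of Ptch1 was lost without replicate 1 and that of Gli1 without replicate 2. Across the Notch and Hedgehog list 54.5% of tested genes were called, against 40.5% over all genes tested. Of 17 retinoic acid genes 6 rose and 1, the receptor Rarg, fell; the share called, 41.2%, is near the 40.5% of all genes tested. The receptor Rarb rose from 0 CPM to 14.4 and 8.74 CPM (at least 11.5-fold) and the retinal reductase Dhrs3 by 3.51 (SE 0.47), while Aldh1a2, the enzyme that makes retinoic acid in the embryo, had 8 counts and then 3 and 10 (adjusted p = 0.72).

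Chromatin regulators shifted in composition. Rybp (ENSMUSG00000072872, chromosome 6), the RING1-binding subunit of variant Polycomb complex PRC1, was at 76.2 CPM at day 0 and at 38.3 and 43.1 CPM at day 8 (−0.90, SE 0.32, adjusted p = 0.0413). That call is close to the threshold and was lost without either day 8 replicate (adjusted p = 0.167 and 0.103) and with DESeq2 (adjusted p = 0.132). Its paralog Yaf2 was at 10.6 CPM and then 15.7 and 22.8 CPM, which did not pass (0.87, SE 0.42, adjusted p = 0.115). Of 33 PRC1 genes 7 rose and 12 fell (median −0.32), so 57.6% were called against 40.5% over all genes tested. Without day 8 replicate 2 only 4 rose and without replicate 1 only 7 fell. Cbx7, the chromobox subunit of ES cells, went from 72.2 CPM to 5.11 and 5.07 CPM (−3.82, SE 0.42, adjusted p = 2.56e-05), and Cbx8 rose from 0 CPM to 1.92 and 5.35 CPM (at least 3.78-fold). The polyhomeotic subunit Phc1 went from 531 CPM to 78.6 and 75.2 CPM (−2.79, SE 0.23) as Phc2 went from 1.32 CPM to 14.1 and 16.1 CPM (3.48, SE 0.76). The list thus held paralogs that moved in opposite directions. In PRC2, which methylates histone H3, 8 of 12 fell and 0 rose, with a median of −1.36. The core subunits Ezh2 (447 CPM, then 129 and 174 CPM), Suz12 (530 CPM, then 120 and 144 CPM) and Eed (373 CPM, then 111 and 125 CPM) fell, with log2 fold changes of −1.56, −2.01 and −1.66, as did the ES cell cofactors Mtf2, Jarid2 and Epop, with −2.62, −2.71 and −4.84. Ezh1 was at 23.1 CPM and then 27.2 and 42.3 CPM (adjusted p = 0.259). Of 18 DNA methylation genes 5 rose and 8 fell. The new-methylation enzymes moved apart, with Dnmt3b from 423 CPM to 35.8 and 57.8 CPM (−3.17, SE 0.57) and Dnmt3a from 152 CPM to 417 and 362 CPM (1.36, SE 0.26). The oxidases did as well, with Tet1 from 351 CPM to 21.4 and 28.7 CPM (−3.80, SE 0.25) and Tet3 from 1.98 CPM to 12.1 and 13.8 CPM (2.69, SE 0.77). Dnmt1, which copies methylation at replication, was at 1025 CPM and then 1211 and 1198 CPM (adjusted p = 0.348).

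Growth genes moved down by smaller steps. Of 30 mitotic genes 20 fell and 0 rose, with a median of −0.86; without day 8 replicate 1 the count was 12, without library scaling factors 13, and 10 fell by at least 2-fold. Cyclin Ccnb1 went from 163 CPM to 39.6 and 38.9 CPM (−2.05, SE 0.28) and Ccne1, the cyclin of S phase entry, from 75.5 CPM to 7.67 and 5.64 CPM (−3.51, SE 0.53). Mki67, a common marker of cycling cells, was at 846 CPM and then 1060 and 1020 CPM, which did not pass (0.30, SE 0.18, adjusted p = 0.206), and Cdk1 and Aurkb did not pass either. Of 32 DNA replication genes 21 fell, 12 without day 8 replicate 1, and 1 rose, none without replicate 2; the origin subunits Orc1 and Orc2 fell (−2.56, SE 0.27, and −2.62, SE 0.23), and the clamp Pcna went from 470 CPM to 167 and 182 CPM (−1.43, SE 0.20). In the list of CDK inhibitors and p53 targets 8 of 24 rose (5 without day 8 replicate 2) and 4 fell. The inhibitors Cdkn1a (36.6 CPM, then 144 and 149 CPM) and Cdkn1b (10.6 CPM, then 32.9 and 36.1 CPM) rose by 2.00 (SE 0.26) and 1.71 (SE 0.34), while Trp53 itself went from 748 CPM to 193 and 214 CPM (−1.88, SE 0.24). Across that list 50% were called, against 40.5% over all genes tested. The D cyclins changed places, with Ccnd1 lower (−2.11, SE 0.21) and Ccnd2 and Ccnd3 higher.

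Ribosome assembly genes fell broadly. Of 25 genes of ribosome biogenesis and translation 21 fell and 0 rose, with a median of −1.39. Nucleolin, Ncl, went from 13579 CPM to 3418 and 3897 CPM (−1.89, SE 0.16, adjusted p = 3.49e-06), and the small nucleolar particle proteins Nop56 and Nop58 fell (−2.55, SE 0.20, and −2.01, SE 0.18). Myc, which drives this program, went from 94.7 CPM to 39.9 and 24.2 CPM (−1.56, SE 0.34). Of 32 ribosomal protein genes 14 fell and 1, Rps19, rose, so 46.9% were called against 40.5% over all genes tested. Those that fell by at least 2-fold numbered 7. Ribosomal protein genes have many pseudogenes and their values are uncertain.

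Energy genes changed in part. Of 28 genes of glycolysis and hypoxia 13 rose and 4 fell (2 without day 8 replicate 2), with a median of 1.15. Pgk1 went from 143 CPM to 481 and 494 CPM (1.76, SE 0.30), Vegfa, the hypoxia-induced vessel growth factor, from 18.5 CPM to 128 and 103 CPM (2.64, SE 0.28), and the lactate transporter Slc16a3 from 5.28 CPM to 44.7 and 37.2 CPM (2.95, SE 0.44). Gapdh, the next enzyme before Pgk1, went the other way, from 197 CPM to 12.1 and 9.86 CPM (−4.16, SE 0.27), but it has many processed pseudogenes that may take its reads and its value is uncertain. Of 32 respiratory chain genes 7 fell and 1 rose, so 25% were called against 40.5% over all genes tested; 2 and 4 fell without day 8 replicates 1 and 2, and none rose without either. Without library scaling factors 2 fell and the list's median of −0.21 became −0.00. Fatty acid oxidation and cardiac energy genes had 8 higher and 4 lower of 18, but 4 and 5 higher without day 8 replicates 1 and 2 and 1 lower without replicate 2. The lipase Lpl (4.09, SE 0.52) and the regulators Ppargc1a (ratio 30.4, 5.27 to 1219) and Esrrg (at least 11.8-fold) rose, and the genes of adult heart muscle Mb, Ckmt2 and Cpt1b had 2 or fewer counts in each library. Of 22 cholesterol and lipid synthesis genes 12 rose and 0 fell, with 6 higher without day 8 replicate 1; the desaturase Scd2 went from 104 CPM to 706 and 687 CPM (2.74, SE 0.21, adjusted p = 1.56e-06). Of 13 genes of the LIN28 and let-7 axis 4 rose and 3 fell (1 without day 8 replicate 1), with the let-7 target Hmga2 from 8.58 CPM to 226 and 248 CPM (4.78, SE 0.30). The shares called were 53.8% in this list and 54.5% in the cholesterol and lipid list, against 40.5% over all genes tested. Of 23 interferon response genes 5 rose (3 without either day 8 replicate) and 3, Ifitm1, Ifitm2 and Ifitm3, fell, a share called of 34.8% against 40.5% over all genes tested. Ifitm2 lost its call without day 8 replicate 1 (adjusted p = 0.135) and without library scaling factors (0.077).

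Gene types differed in direction. Of 12875 protein-coding genes tested 23.7% rose and 17% fell, while of 1057 processed pseudogenes 20 rose and 512 fell (48.4%). Their share of all counts went from 5.8% at day 0 to 2.79% and 2.89% at day 8. Small nucleolar RNA genes, which sit in introns of ribosomal and nucleolar genes, had 6 higher and 37 lower of 124, and long intergenic noncoding RNA genes 26 higher and 10 lower of 97. Among the 12 largest falls by fitted value, 10 of them with 0 counts at day 8 and so without a measured size, 7 were pseudogenes, and among the rest were Esrrb, Tdrd12, the germ cell ATPase gene Morc1, whose call DESeq2 did not make (adjusted p = 0.148), and the zinc finger gene Zfp534, which went from 269 CPM to 0 counts in both day 8 libraries (at least 598-fold lower). Reads of a processed pseudogene cannot be told apart from those of its parent here. The 12 largest rises by fitted value all had lower bounds under the measured ratios of Tnnt2 and Igfbp5 (744 and 1042). These 12 rises, chosen among genes at 20 CPM or more, all had 0 counts at day 0, where the fitted value is no bound. They were Actc1, Slc8a1, the globins Hba-x, Hba-a1, Hba-a2 and Hbb-y, Plek, a signalling protein of platelets and leukocytes (377 and 259 CPM, at least 318-fold, adjusted p = 0.00671, or 0.0536 without a filter on low counts), Capn6, Gm16300, Zfp488, Svep1 and Rgs5, a G protein regulator of pericytes.

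**Figure D5:**
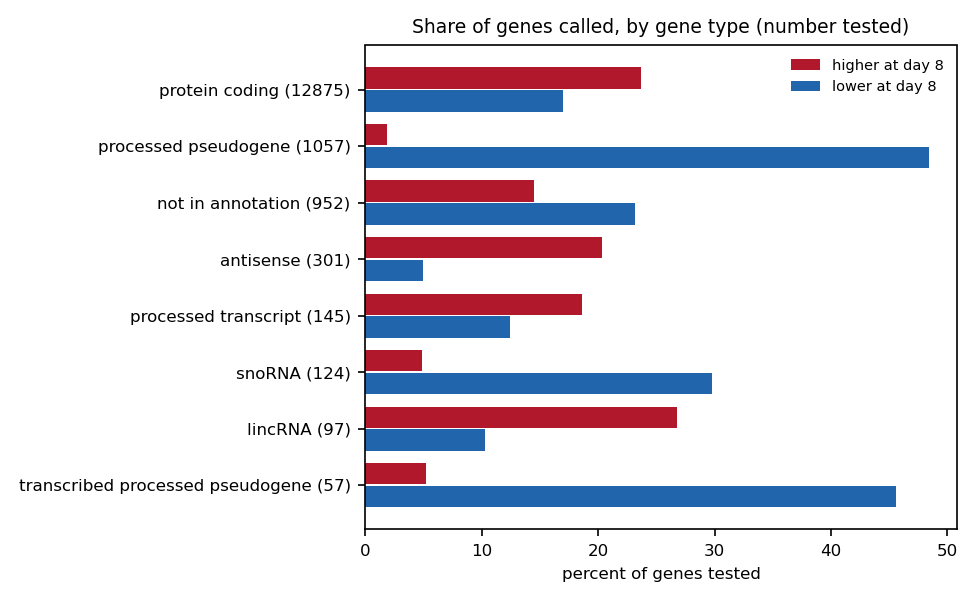
For each gene type with at least 50 genes tested (number in brackets), bars give the percent of genes that rose and the percent that fell at day 8. Processed pseudogenes stand out with 1.89% higher and 48.4% lower, against 23.7% and 17% for protein-coding genes.

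Whether the same step differed in Rybp null cells was tested as a difference of courses, the change from day 0 to day 8 in wild type minus that in null cells. Of 15819 genes 5 passed (0.0316%), 2 with a larger rise in wild type (0.0126%) and 3 with a smaller rise or larger fall (0.019%). At an unadjusted p under 0.05 there were 1404, and DESeq2 called 48 and 39. Ttn was at 341 CPM and then 1259 and 918 CPM in wild type cells and at 132 CPM and then 19.8 and 31.4 CPM in null cells, a difference of 4.05 on the log2 scale (SE 0.43, adjusted p = 0.00831). The groups went in opposite directions, as the null cultures lay below their own day 0 library. Rnf17 was at 90.4 CPM and then 1.6 and 0.564 CPM in wild type cells and at 296 CPM and then 51 and 76.3 CPM in null cells (−4.16, SE 0.60, adjusted p = 0.0481). Cdkn1c, a growth-restraining imprinted CDK inhibitor, was at 25.1 CPM and then 89.4 and 107 CPM in wild type and at 4.4 CPM and then 170 and 211 CPM in null cells (−3.45, SE 0.47, adjusted p = 0.0481). Both genotypes thus moved the same way for these 2 genes, by different amounts. Aim2, a sensor of cytosolic DNA, was at 144 CPM and then 11.5 and 9.3 CPM in wild type and at 15.1 CPM and then 11.4 and 10.4 CPM in null cells (−3.33, SE 0.48, adjusted p = 0.0481). Fam213a, a peroxiredoxin-like protein, was at 16.8 CPM and then 166 and 158 CPM in wild type and at 113 CPM and then 185 and 244 CPM in null cells (2.34, SE 0.34, adjusted p = 0.0481). For Aim2 and Fam213a the day 8 levels of the genotypes were near each other and the lone day 0 libraries were apart. Ttn lost its call without wild type day 8 replicate 1, and the other 4 without either wild type day 8 or either wild type day 14 replicate; leaving out a null replicate raised the counts to as many as 30 and 16. The muscle methyltransferase Smyd1 came next among sarcomere-related genes and did not pass (3.39, SE 0.55, adjusted p = 0.0617); it was at 12.9 CPM and then 91.7 and 97.5 CPM in wild type and at 6.94 CPM and then 5.32 and 4.32 CPM in null cells.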

How the data were processed

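The files used here are raw counts of reads per Ensembl gene for 10 libraries in 6 groups of genotype and day, as the authors deposited them. Per the submitters' processing notes the tools were TopHat, HTSeq and DESeq with build mm9. Per the labels' protocols, RNA was TRIzol-extracted from cells of a dish and amplified with NuGEN Ovation and Encore kits. For versions, annotation and strand the sources used here give nothing, so antisense, overlapping and near-identical genes are uncertain. Of 36191 gene identifiers 30946 matched a symbol, and chromosomes and gene types came from a GRCm38 annotation used for names only.

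From those counts, edgeR 4.0.16 (R 4.3.3) was fitted to all 10 libraries with TMM scaling, filterByExpr at a minimum count of 10 and the robust quasi-likelihood test, two-sided, with Benjamini-Hochberg adjustment over 15819 genes and 4 residual degrees of freedom. For the lone day 0 library the spread is taken from the other groups. Every adjusted p in the text is from this test unless another tool is named. Libraries held 3028153 to 6890792 counts, which limits precision for genes of a few counts. Wild type day 8 was compared with day 0, and the step was compared between genotypes as a difference of differences. The fit was tested on simulated counts. Replicate numbers did not pair the samples: correlations of same-numbered deviations ran from −0.211 to 0.16. Named genes were those fixed per list and up to 4 called members per list and direction, by smallest p. Also named were the 12 largest changes each way at 20 CPM or more. The difference of courses added the genes closest to or past its threshold. Others were named after their values were seen. The members and the 42 lists were chosen with earlier results of these data known. Alternatives were other scalings, DESeq2 1.42.0, no filter or a minimum count of 30, fewer libraries, a replicate block, each replicate left out, a 2-fold minimum and, added after seeing the data, library totals without scaling factors.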

Additional observations from a re-analysis of the deposited data

Results flagged for a closer look

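The change from day 0 to day 8 differed between wild type and Rybp null cells for 5 genes, by the test of that difference itself. Ttn rose in wild type and was lower at day 8 than at day 0 in null cells, with a difference of 4.05 on the log2 scale. Fam213a rose more in wild type, with a difference of 2.34. Cdkn1c rose less in wild type, with a difference of −3.45. Rnf17 and Aim2 fell further in wild type, with differences of −4.16 and −3.33. Each course starts from a single day 0 library, so a difference between the day 0 libraries cannot be told apart from a difference in the course.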

How the results depend on the processing

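The counts of the wild type step stayed within 1.5 times of the reported ones under each alternative run. Between 2614 and 3698 genes rose and between 2092 and 3330 fell with a replicate left out, DESeq2 gave 2656 and 2439, and the highest counts, 4182 and 3833, came with the 3 compared libraries alone. Leaving out scaling factors gave 3968 and 2462 and moved the median of all genes by 0.21 on the log2 scale. With a replicate block, although the numbers do not pair the samples, 3140 rose and 2899 fell. Of 262 named genes called, 221 kept their call under all alternatives that gave a value, the 2-fold minimum aside. Aldh1a2, not called, ran from −1.43 without wild type day 8 replicate 2 to 0.09 without replicate 1, a change of sign. Of 1512 list counts, 87 moved by over 1.5 times; the cause was not tested. Those not given above include 17 in place of 11 visceral endoderm genes higher with the 5 wild type libraries alone, and 10 in place of 5 interferon genes higher and 6 in place of 3 LIN28 axis genes lower with the 3 compared libraries alone.

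The difference of courses did depend on the setting. The numbers of genes that rose more (or fell less) and that rose less (or fell more) in wild type were 1 and 3 with RLE size factors, 1 and 0 with upper-quartile factors and with library totals, 48 and 39 with DESeq2, 179 and 94 without a filter, and 0 and 0 with the replicate block. With a replicate left out they ran from 0 to 30 and from 0 to 16; the cause was not tested. With 1 day 0 library, counting error limits genes of a few counts.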

Other observations

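The genes below were picked after their values were seen, so they are descriptions with no independent support. Genes for subunits of the BAF chromatin remodelling complex moved in both directions. The ATPase Smarca2 went from 2.31 CPM at day 0 to 310 and 325 CPM at day 8 (log2 fold change 7.08, SE 0.34, edgeR adjusted p = 9.54e-08), and the alternative ATPase Smarca4 from 87.7 CPM to 155 and 168 CPM (0.88, SE 0.22, adjusted p = 0.00769). Smarcc2, a core scaffold subunit, went from 25.1 CPM to 193 and 178 CPM (2.88, SE 0.31), and Dpf3 rose from 0 counts by at least 7.72-fold. Smarcd3, a subunit of heart and muscle, had a ratio of 26.3 (4.54 to 1057). Actl6a (−2.15, SE 0.35) and Smarcd1 (−1.22) fell.

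Several chaperone genes were lower. Hsp90aa1, the inducible HSP90, went from 9570 CPM to 828 and 1053 CPM (−3.35, SE 0.20, edgeR adjusted p = 2.93e-07), and Hspa8, the constitutive HSP70, from 4174 CPM to 770 and 822 CPM. The mitochondrial pair Hspd1 and Hspe1 fell by 1.98 and 2.08. Hsp90ab1, the constitutive HSP90, did not pass (−0.44, adjusted p = 0.0967).

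On chromosome 4, 18 zinc finger genes picked by name were tested, and all 18 fell, against 19.3% of all genes tested. They are not a complete family. Zfp600 was at 269 CPM at day 0 and at 0 and 0.564 CPM at day 8, and Rex2 was at 341 CPM and then at 0.958 and 0.282 CPM (−9.07, SE 0.57). These genes are close copies whose reads may be shared, so the 18 are not independent.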
